A study of Mus musculus with 10 samples.

Results

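Pancreas tail pieces of female mice aged 12 weeks were compared between mice with both alleles of the insulin receptor gene Insr floxed (labelled Insr KO, 4 libraries) and mice with none floxed (labelled Insr WT, 3 libraries), 7 of the 10 libraries of the series. A floxed allele carries sites between which Cre recombinase can remove sequence. Per the labels, the Insr WT mice were Ptf1aCreER, Insrw/w and nTnG, and the Insr KO mice were Ptf1aCreER, Insrf/f and nTnG, with 0 and 2 floxed alleles. Ptf1aCreER is a Cre that tamoxifen switches on. The promoter of Ptf1a, an acinar transcription factor gene, drives it, so the design aims recombination at acinar cells and leaves other cells of the tissue with intact receptors. The nTnG allele reports recombination by fluorescence in the nucleus. What else the labels list as common to every genotype is left out here. The 3 Insr Het libraries (1 floxed allele) entered the statistical fit and no comparison. A label counts 4 WT mice, of which 3 were analysed here. The series asks, by its title, about digestive enzyme production and inflammation under the insulin receptor of acinar cells. Libraries are named by label and mouse number, as in WT-2404.

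The insulin receptor is a tyrosine kinase at the cell surface. Bound insulin makes it phosphorylate adaptor proteins, which engage PI3K, AKT and mTOR on one branch and the RAS to ERK cascade on the other. In many tissues these branches raise ribosome production, protein synthesis and lipid synthesis. Acinar cells make and package digestive enzymes in quantities that dominate the RNA of the pancreas. After injury they can take on features of duct cells, a change called metaplasia, beside inflammation and scar-forming fibroblasts.

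The digestive enzyme list (29 genes) made up 15.9% (WT-2404), 58.6% (WT-1860) and 71.8% (WT-2067) of all gene counts in the WT libraries. In the KO libraries it made up 71.1% (KO-2079), 77.7% (KO-2070), 62.6% (KO-2124) and 77.7% (KO-2126). WT-2404 thus stood apart from the other 6 libraries. Many results that lean on it, though not all, are given with and without it. The group means were 48.8% ± 29.2 (SD, n = 3) and 72.3% ± 7.14 (SD, n = 4). KO minus WT was 23.5 points, with p = 0.114 by exact permutation over the 35 splits of the mice (two-sided, smallest possible p 0.0286). Gene counts ranged from 11718559 to 18588327 in WT and from 12028969 to 18191235 in KO libraries. Levels are given in CPM, counts scaled to a common library size after a TMM factor that centres the bulk of genes, so a few abundant enzymes do not set the scale. The factor was 3.54 for WT-2404 and 0.596 for KO-2126. By library size alone the median of all genes was -1.17 on the log2 scale, KO minus WT, so every "higher" and "lower" is relative to the bulk of genes. In bulk tissue, fewer cells of a type and less RNA per cell cannot be told apart.

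No gene of the 13688 tested passed an adjusted p of 0.05 in edgeR's quasi-likelihood test (0 genes, 0% of those tested, smallest adjusted p = 0.116), while DESeq2 called 1009 (7.37%), 294 of them higher in KO libraries. At an unadjusted p under 0.05 edgeR gave 3222 genes (23.5%), with 1315 higher (9.61%) and 1907 lower (13.9%) in KO libraries. By library size alone 2841 genes passed the adjusted threshold and 0 of these were higher. Leaving out WT-2067 gave 1932 genes past it, 881 of them higher, and leaving out WT-2404 gave 0, with 1297 at an unadjusted p under 0.05. Ranges of the WT and KO libraries did not overlap for 922 higher genes (6.74%) and 1253 lower genes (9.15%).

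The account below turns on genes that did not hang on 1 library. A gene is called stable where the WT and KO ranges did not overlap and edgeR's unadjusted p was under 0.05 with all libraries and with each of the 7 left out in turn. There were 865 stable genes (6.32%), 348 higher (2.54%) and 517 lower (3.78%) in KO libraries. Their median log2 fold change was 0.86 for the higher and -1.39 for the lower genes, and 0.025 over all genes tested. Stable genes were picked by range and p in these same libraries, so the distance from all genes follows from the choice. Differences of more than 2-fold were found for 107 of the higher and 374 of the lower genes. DESeq2's threshold, on the same counts, was passed by 710 of the 865. With the enzyme share of each library as a covariate all 865 kept their sign, and 579 still had an unadjusted p under 0.05 in edgeR (215 higher and 364 lower), a count added after the data had been seen. The 579 were picked in these same libraries. Over all 13688 genes tested only 768 had such a p in that fit (326 higher). Without WT-2404 the count over all genes was 1297 (569 higher and 728 lower). Counts of list members in these fits stand beside those lower totals. The plot of all genes tested shows that the higher stable genes gather at modest folds and mid to high levels, and that the lower ones spread to larger folds.

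**Figure D1:**
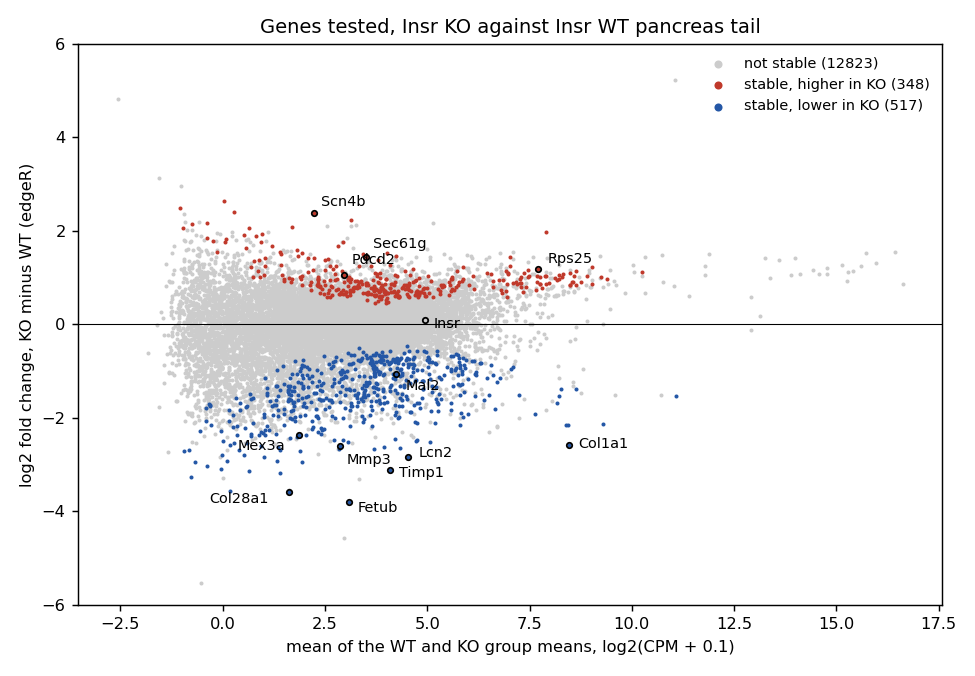
Log2 fold change, KO minus WT, by edgeR (vertical axis) against the mean level of the WT and KO groups as log2(CPM + 0.1) (horizontal axis), 1 point per gene tested. Red and blue points are the 348 higher and 517 lower stable genes, grey points the rest, and the genes named on the plot are described in the text.

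Insr itself did not separate the groups. It stood at 21.0, 27.8 and 40.5 CPM in the WT libraries (in the order WT-2404, WT-1860, WT-2067, kept below) and at 22.7, 33.3, 35.5 and 34.7 CPM in the KO libraries (KO-2079, KO-2070, KO-2124, KO-2126). The ranges overlapped, with a log2 fold change of 0.09 (SE 0.26) and an edgeR adjusted p of 0.864. The sign rested on single libraries, with -0.12 without WT-2404. Gene counts of a tissue piece show neither the loss of single exons nor recombination in the acinar cells among other cells, so Insr does not check the labels, and KO and WT stand for the labels throughout. Igf1r encodes the closely related IGF-1 receptor, which binds insulin weakly and shares its adaptors. It stood at 17.7, 14.5 and 20.7 CPM in WT and 25, 28.2, 28.5 and 28.4 CPM in KO libraries. Every KO library lay above every WT library, with a log2 fold change of 0.64 (SE 0.19, edgeR adjusted p = 0.119, DESeq2 adjusted p = 0.0419) and 0.62 with the enzyme covariate.

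Of 37 insulin and PI3K pathway genes tested, 6 were higher at an unadjusted p under 0.05 (16.2%, against 9.61% of all genes). At that p 2 were lower (5.41%, against 13.9%). Of the list, 3 higher genes (8.11%, against 2.54%) and 1 lower gene (2.70%, against 3.78%) were stable. Both shares on the lower side were thus below those of all genes. The list's median was 0.20, and 0.027 with the enzyme covariate. Igf1r was the first of the stable higher genes. Inppl1, which encodes the lipid phosphatase SHIP2 that takes apart the PI3K product, stood at 26.5, 38.4 and 44.4 CPM in WT and 49.9 to 60.0 CPM in KO libraries, with a log2 fold change of 0.62 (SE 0.21). Foxo4, one of the FOXO transcription factors that AKT holds out of the nucleus, was at 0.58 (SE 0.20). Both have an edgeR adjusted p near that of Igf1r (0.128 and 0.13). With the enzyme covariate Inppl1 was at 0.38 and Foxo4 at 0.37. Their unadjusted p in that edgeR fit was 0.073 and 0.114, against 0.0168 for Igf1r. The stable lower gene was Ptpn1, the tyrosine phosphatase PTP1B that switches the insulin receptor off. It stood at 35, 25.8 and 19.6 CPM in WT and 18.2, 8.30, 16.3 and 11.3 CPM in KO libraries, a log2 fold change of -0.98 (SE 0.27). Irs2, an adaptor of the receptor, had separate ranges (3.21 to 4.23 CPM in WT, 5.01 to 8.19 CPM in KO) and a log2 fold change of 0.82, but was not stable. Inpp5d, the SHIP1 phosphatase of blood cells, was at -1.57 with ranges that overlapped.

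Of the lists on the higher side, the cytosolic ribosome had the largest share of stable genes. Of 78 ribosomal protein genes tested, 77 were higher in KO libraries (51.9% of all genes were), 71 had an unadjusted p under 0.05 (91.0%, against 9.61% of all genes) and 52 were stable (66.7%, against 2.54%). The median log2 fold change was 0.86. It was 0.66 without WT-2404, with 56 genes at an unadjusted p under 0.05, and 0.58 with the enzyme covariate, with 48. By library size alone the median was -0.19, above the shift of -1.17 in all genes. Summed over the list, the level was 10102, 14400 and 18293 CPM in WT and 25667, 27599, 24605 and 27874 CPM in KO libraries. The lowest KO library thus lay above the highest WT library, and the KO libraries were close to each other.

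Rps25, a protein of the small subunit, stood at 81.4, 129 and 172 CPM in WT and 268, 269, 334 and 292 CPM in KO libraries, a log2 fold change of 1.19 (SE 0.30). Rpl37 of the large subunit stood at 69.8, 102 and 141 CPM in WT and 235, 222, 214 and 221 CPM in KO libraries, a log2 fold change of 1.10 (SE 0.27). The adjusted p of both was 0.116 in edgeR, and so were those of Rpl35a (1.15) and Rpl39 (0.94). Rps27, the member on the other side, had under 1 CPM in each library and a log2 fold change of -0.31 (SE 0.68) that changed sign without WT-2067. Ribosomal protein genes have many near-identical processed copies in the genome, and Rpl26 was listed at 0 in all 7 libraries, so their counts are uncertain to the extent that shared reads were split or dropped.

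The messenger RNAs of ribosomal proteins and translation factors, and the host transcripts of small nucleolar RNAs, typically begin with a cytosine followed by further pyrimidines (a 5′ terminal oligopyrimidine, or TOP, sequence), through which mTOR signalling controls their translation. A short pyrimidine run, CTTTC, was searched on the gene's strand within 10 bases on either side of the RefSeq start (GRCm38.p6, the same assembly as mm10), in the 10885 of 13688 genes with a promoter entry. It was present in 10 of 57 ribosomal protein genes with an entry (17.5%), 3 of 13 small nucleolar RNA host genes (23.1%), 1 of 28 translation factor genes (3.57%) and 2.76% of all genes. The share among translation factors was thus near that of all genes. On the other strand, as GAAAG, the shares were 3.51% of the ribosomal protein genes and 2.28% of all genes. Of the stable higher genes 12 of 280 held it (4.29%), and without the ribosomal proteins 2.5% did, near the share in all genes. The stretches shown run from 40 bases before the start to 15 after, with each CTTTC in capitals. They belong to the 4 stable ribosomal protein genes and the 2 host genes with the smallest p that hold the run, so Rps10, Rplp2, Rpl35 and Gas5 were chosen after their values were seen. Genes of a chromosome left out of the choice were passed over.
Rpl35a: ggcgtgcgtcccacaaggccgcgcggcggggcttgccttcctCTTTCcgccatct
Rps10: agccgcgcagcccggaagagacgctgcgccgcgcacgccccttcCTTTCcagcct
Rplp2: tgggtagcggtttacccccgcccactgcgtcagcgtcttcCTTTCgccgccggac
Rpl35: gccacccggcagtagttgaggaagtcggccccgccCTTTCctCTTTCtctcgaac
Snhg12: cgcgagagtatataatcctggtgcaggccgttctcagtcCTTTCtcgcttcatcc
Gas5: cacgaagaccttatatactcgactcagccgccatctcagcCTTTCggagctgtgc
They lie at chr16:33056442-33056496 (Rpl35a, plus strand), chr17:27635230-27635284 (Rps10, minus), chr7:141447611-141447665 (Rplp2, plus), chr2:39005117-39005171 (Rpl35, minus), chr4:132308638-132308692 (Snhg12, plus) and chr1:161035126-161035180 (Gas5, plus). Levels of Rps10 were 71.9, 103 and 137 CPM in WT and 202 to 218 CPM in KO libraries. Gas5 stood at 40.2, 46.7 and 44.8 CPM in WT and 52.4 to 60.0 CPM in KO libraries, a log2 fold change of 0.34 with separate ranges that was not stable.

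Other parts of the translation machinery leaned the same way with fewer genes past the threshold. Of 15 small nucleolar RNA host genes tested, 13 were higher, 3 at an unadjusted p under 0.05 (20%, against 9.61% of all genes). Snhg1 and Snhg18 were stable (2, or 13.3%, against 2.54%). Their median was 0.52, and -0.56 by library size alone. Snhg1, which hosts several guide RNAs for ribosomal RNA, stood at 8.51, 7.66 and 9.56 CPM in WT and 16.3, 12.8, 18 and 19.4 CPM in KO libraries, a log2 fold change of 0.96 (SE 0.20, edgeR adjusted p = 0.116). Snhg12 was at 0.54 and had separate ranges (4.21 to 5.15 CPM in WT, 5.40 to 8.44 CPM in KO), but was not stable. Of 37 translation factors 35 were higher, 12 at an unadjusted p under 0.05 (32.4%, against 9.61% of all genes) and 4 stable (10.8%, against 2.54%). The median was 0.47, and -0.68 by library size alone. Eef1b2, part of the elongation factor that reloads GTP, stood at 134, 182 and 270 CPM in WT and 397, 456, 346 and 421 CPM in KO libraries, a log2 fold change of 1.05 (SE 0.30). The initiation factor subunit Eif3m was at 0.84 (SE 0.24) and Tpt1, a growth-associated TOP transcript, at 1.11 (SE 0.37). Pabpc1, the poly(A) tail binding protein and also a TOP transcript, lay on the other side at -0.46 (SE 0.24), with separate ranges but no p under the threshold.

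Pdcd2 had the smallest p on the higher side. It encodes a chaperone that escorts a ribosomal protein of the small subunit. It stood at 4.33, 5.41 and 5.27 CPM in WT and 10.3, 10.8, 10.3 and 10.2 CPM in KO libraries, with the groups far apart and little spread in either. This gave a log2 fold change of 1.06 (SE 0.17, edgeR unadjusted p 4.44e-05, adjusted p = 0.116), and 0.96 without WT-2404.

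At the membrane of the endoplasmic reticulum (ER), where secreted proteins enter the secretory route, 23 of 24 translocon, signal peptidase and signal recognition particle genes were higher. An unadjusted p under 0.05 was found for 7 (29.2%, against 9.61% of all genes), and Sec61g, Srp9 and Sec61b were stable (3, or 12.5%, against 2.54%). The median of 0.54 was 0.32 without WT-2404, 0.18 with the enzyme covariate and -0.54 by library size alone. Sec61g, the smallest subunit of the translocation channel, stood at 4.78, 5.31 and 8.21 CPM in WT and 13.0, 15.5, 20.2 and 16.8 CPM in KO libraries, a log2 fold change of 1.44 (SE 0.24, edgeR adjusted p = 0.116). This gene too has near-identical copies. Srp9, a protein of the signal recognition particle, stood at 16.5, 39.0 and 44.1 CPM in WT and 59.9, 83.7, 69.8 and 78.1 CPM in KO libraries (1.14, SE 0.30).

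Genes of mitochondrial respiration leaned the same way. Of 73 nuclear genes for subunits of oxidative phosphorylation, 71 were higher in KO libraries. An unadjusted p under 0.05 was found for 34 (46.6%, against 9.61% of all genes), and 12 were stable (16.4%, against 2.54%). The median was 0.45, with 0.35 without WT-2404 (13 genes at an unadjusted p under 0.05), 0.24 with the enzyme covariate (5 genes) and -0.74 by library size alone. Uqcrh of complex III stood at 38.3, 58.3 and 71.7 CPM in WT and 97.3, 130, 132 and 119 CPM in KO libraries, a log2 fold change of 1.09 (SE 0.26, edgeR adjusted p = 0.116). Ndufa6 and Ndufa1 of complex I were at 0.90 (SE 0.23) and 1.06 (SE 0.27), and Cox7a2 of complex IV at 0.69 (SE 0.19).

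The plot of levels by library shows 6 genes from either side. Scn4b, a sodium channel subunit, had the largest fold of the stable higher genes with a group mean of at least 5 CPM (2.38, SE 0.59), and the retinol-binding protein gene Rbp7 (2.08) and the glutamate transporter gene Slc1a3 (1.77) also had large ones. With the enzyme covariate Scn4b was at 1.40 and Slc1a3 at 0.96. Piga, which starts the synthesis of the GPI membrane anchor, stood at 2.97, 3.12 and 3.62 CPM in WT and 7.54, 5.27, 10.8 and 10.01 CPM in KO libraries (1.39, SE 0.29).

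**Figure D2:**
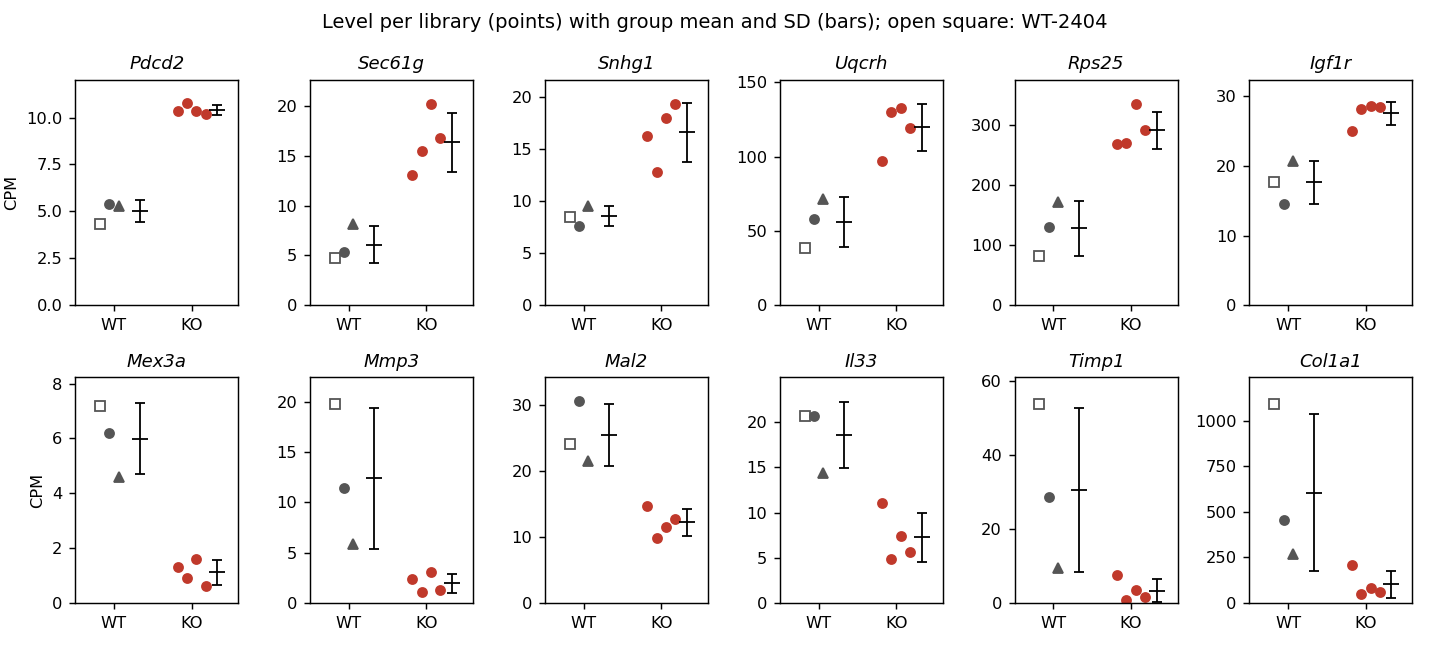
Level in CPM of the TMM-scaled library size (vertical axes, each from 0) in the WT and KO libraries, 1 point per library, with the group mean and SD beside it. The upper 6 genes were higher and the lower 6 lower in KO libraries with no overlap of the groups, and the open square, WT-2404, is the highest WT library for Mex3a, Mmp3, Timp1 and Col1a1.

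The other genes with the smallest p on this side covered many functions. They included the netrin receptor Unc5a (1.53), autotaxin, which makes a signalling lipid (Enpp2, 0.89), the ER chaperone-like ATPase Tor1a (0.84), the chemerin-binding receptor Ccrl2 (1.47), the histone chaperone Asf1a (1.04), the cold-inducible RNA-binding protein Cirbp (0.83), the iron-sulphur cluster protein Bola2 (0.78), the lysosomal glycoprotein Creg1 (0.80) and the mitochondrial sulphur transferase Tst (1.37). Ndrg2 was at 1.03 and the scaffold protein gene Cnksr3 at 1.15. Each was stable, with an edgeR adjusted p of 0.116.

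The exocrine programme itself was higher in direction and not stable. All 28 digestive enzyme genes tested were higher in KO libraries, but only Ctrc had an unadjusted p under 0.05 (1 gene, 3.57%, against 9.61% of all genes) and 0 were stable. Their median log2 fold change was 1.17, 0.61 without WT-2404 and 0.56 by library size alone. With the enzyme covariate, a term built from these same genes, it was 0.0018. Pnlip, pancreatic lipase, stood at 1852, 37250 and 96326 CPM in WT and at 121000, 159060, 64233 and 185340 CPM in KO libraries, with ranges that overlapped (1.55, SE 1.05, edgeR adjusted p = 0.375). Ctrb1, a chymotrypsinogen, was at 0.86 (SE 0.89). Trypsins and amylases have near-identical copies, which makes single members uncertain. Of 14 acinar transcription factors 13 were higher, 2 had an unadjusted p under 0.05 (14.3%, against 9.61% of all genes) and 0 were stable. Their median of 0.62 was 0.25 without WT-2404 and -0.36 by library size alone.

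Genes of the zymogen granule and of secretagogue signalling were mostly higher in direction, with 21 of 26 tested higher and 5 lower. An unadjusted p under 0.05 was found for 4 higher genes (15.4%, against 9.61% of all genes). It was also found for 4 lower genes (15.4%, against 13.9%), near the share in all genes. The 2 stable ones were lower (7.69%, against 3.78%). The list's median of 0.39 was 0.29 without WT-2404 and 0.077 with the enzyme covariate. Spink1, the trypsin inhibitor packed with the enzymes, stood at 182, 660 and 989 CPM in WT and 1205, 1830, 1266 and 1570 CPM in KO libraries, with separate ranges (1.27, SE 0.49), but was not stable. The granule membrane protein gene Gp2 was at 1.51 with ranges that overlapped. Mal2, which serves transport to the apical membrane of polarised epithelial cells, was lower and stable, at 24.2, 30.7 and 21.6 CPM in WT and 14.8, 9.88, 11.5 and 12.7 CPM in KO libraries (-1.05, SE 0.19, edgeR adjusted p = 0.116). So was Slc26a9, an anion transporter of airway and gastric epithelium (-2.31, SE 0.57). Mlph, an effector of the granule GTPase Rab27, was at -1.03 (SE 0.21), and with the enzyme covariate Mal2 was at -1.06 and Mlph at -1.02.

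ER chaperones and unfolded protein response genes had a median of 0.58, and 0.068 with the enzyme covariate. Of 29, 23 were higher, 5 at an unadjusted p under 0.05 (17.2%, against 9.61% of all genes) and 0 stable. Hspa5, the main chaperone of the ER, was at 0.69 (SE 0.31) with overlapping ranges, and Pdia4 was lower (-0.49, SE 0.22). In the Reg family, secreted proteins of the injured pancreas, the 6 members tested split. Reg3g stood at 214, 302 and 597 CPM in WT and 209, 6.46, 69.7 and 130 CPM in KO libraries (-1.84, SE 0.81), and its partner Reg3b was at -1.52, while Reg1 was at 1.07. None of these was stable (0 of 6), and the lowest WT and highest KO values of Reg3g nearly met.

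On the lower side, the epithelial genes were those of ducts and metaplasia. Of 36 tested 30 were lower (48.1% of all genes were), 18 had an unadjusted p under 0.05 (50%, against 13.9% of all genes) and 12 were stable (33.3%, against 3.78%). The median was -1.53, with -1.38 without WT-2404 (13 genes at an unadjusted p under 0.05) and -1.04 with the enzyme covariate (13 genes). Mex3a, an RNA-binding protein gene known from gut progenitor cells, had the smallest p of all. It stood at 7.17, 6.18 and 4.60 CPM in WT and 1.30, 0.922, 1.61 and 0.607 CPM in KO libraries. Every KO library lay well under every WT library (-2.37, SE 0.36, edgeR unadjusted p 2.00e-05, adjusted p = 0.116), though its lowest count in a library was 6.

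Sox9, the transcription factor that keeps duct identity and is needed for metaplasia, stood at 22.0, 26.7 and 26.5 CPM in WT and 19.2, 10.9, 12.6 and 9.40 CPM in KO libraries. The groups did not overlap (-0.93, SE 0.22, edgeR adjusted p = 0.116), and the value was -1.0 with the enzyme covariate. Lcn2, an iron-scavenging protein of inflamed epithelium, stood at 79.6, 20.9 and 21.5 CPM in WT and 10.5, 1.71, 7.47 and 2.12 CPM in KO libraries. Its log2 fold change of -2.85 was -1.88 without WT-2404. The membrane mucin gene Muc4 was at -1.78 (SE 0.41). Members did not all lean that way. Tff2, a trefoil peptide, was at 1.04 with overlapping ranges. All 10 tuft cell genes tested were lower, with 3 at an unadjusted p under 0.05 (30%, against 13.9% of all genes) and 0 stable. Their median of -1.06 was -0.82 without WT-2404 and -0.57 with the enzyme covariate, with 0 genes at such a p in either fit. Alox5ap was at -1.47, and -0.85 without WT-2404, and Dclk1 was at -1.26 and -0.95.

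Several of the strongest lower genes encode secreted or surface proteins. Mmp3, the matrix-cutting enzyme stromelysin, stood at 19.8, 11.4 and 5.88 CPM in WT and 2.35, 1.05, 3.04 and 1.31 CPM in KO libraries (-2.61, SE 0.41, edgeR adjusted p = 0.116). Car9, a carbonic anhydrase induced by low oxygen, stood at 15, 10.8 and 7.41 CPM in WT and 3.59, 0.395, 2.17 and 1.42 CPM in KO libraries (-2.47, SE 0.48). The chemokine gene Cxcl14 stood at 22.3, 49.4 and 24.5 CPM in WT and 12.9, 6.06, 8.67 and 10.3 CPM in KO libraries (-1.74, SE 0.35). WT-1860, not WT-2404, was the highest WT library for Cxcl14. Apob, the protein of lipoprotein particles, was at -2.94 (SE 0.60) and -3.07 without WT-2404. The sortilin-family receptor Sorcs2 and the adhesion molecule Chl1 were at -1.96, the tubulin Tubb6 at -1.74, the membrane protein Itm2a at -1.73, the ER membrane protein Ckap4 at -1.75, the GPI-anchor remodelling enzyme Pgap1 at -1.28 and the chloride channel family member Ttyh3 at -1.30. The largest folds were those of Fetub (-3.79) and Col28a1 (-3.59), which were -2.23 and -1.92 without WT-2404.

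AP-1, the FOS and JUN dimers, binds the letters TGAGTCA, a site known from promoters of genes for matrix-cutting enzymes. The site was searched on both strands, as TGAGTCA or TGACTCA, in the 300-base promoters of RefSeq. It was present in 40 of 377 stable lower genes with a promoter entry (10.6%), in 12 of 280 stable higher genes (4.29%) and in 529 of all 10885 genes (4.86%). Among inflammatory mediators 6 of 22 held it (27.3%) and among duct and metaplasia genes 5 of 25 (20%). The share did not follow direction in every list, since 1 of 16 collagen genes (6.25%), a list that was lower, and 6 of 61 oxidative phosphorylation genes (9.84%), a list that was higher, held it. Presence of the letters is a description of the promoter, not of binding. The stretches shown hold the site in capitals with 25 bases on either side. They belong to the 6 stable lower genes with the smallest p that hold it and have a group mean of at least 5 CPM, so S100a11, C1qtnf6, Palld and Rps6ka4 were chosen after their values were seen. Genes named only by a clone or gene model number, and those of the chromosome left out above, were passed over.
Mmp3: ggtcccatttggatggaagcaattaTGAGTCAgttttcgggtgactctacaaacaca
Car9: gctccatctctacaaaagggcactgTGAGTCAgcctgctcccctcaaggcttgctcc
S100a11: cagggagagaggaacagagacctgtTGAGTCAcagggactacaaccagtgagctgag
C1qtnf6: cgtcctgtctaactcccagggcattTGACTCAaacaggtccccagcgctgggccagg
Palld: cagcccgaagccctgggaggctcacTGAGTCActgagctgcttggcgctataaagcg
Rps6ka4: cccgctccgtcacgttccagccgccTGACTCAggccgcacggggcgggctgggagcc
They lie at chr9:7445751-7445807 (Mmp3, plus strand), chr4:43506924-43506980 (Car9, plus), chr3:93520335-93520391 (S100a11, plus), chr15:78529789-78529845 (C1qtnf6, minus), chr8:61591162-61591218 (Palld, minus) and chr19:6840675-6840731 (Rps6ka4, minus), all upstream of the start. S100a11, a calcium-binding protein gene, stood at 79.4, 55.8 and 30.8 CPM in WT and 26.3, 13.0, 22.1 and 11 CPM in KO libraries (-1.60, SE 0.35). Palld, an actin-bundling protein, was at -1.66 (SE 0.39). Among the genes that encode AP-1, Junb was at -1.17 with overlapping ranges. The 17 immediate early genes tested had a median of 0.016, with 0 stable. Of these, 3 were higher at an unadjusted p under 0.05 (17.6%, against 9.61% of all genes). Junb was the 1 lower gene at that p (5.88%, against 13.9%).

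The extracellular matrix was lower in KO libraries. Of 20 collagen genes tested 19 were lower, 17 had an unadjusted p under 0.05 (85%, against 13.9% of all genes) and 11 were stable (55%, against 3.78%). The median was -1.42, with -0.98 without WT-2404 (12 genes at an unadjusted p under 0.05) and -0.77 with the enzyme covariate (4 genes). Summed collagen levels were 5491, 2542 and 1646 CPM in WT and 1578, 727, 1058 and 710.4 CPM in KO libraries, so the groups did not overlap but KO-2079 lay close to WT-2067. Col1a1, the main fibril collagen, stood at 1093, 458 and 266 CPM in WT and 211, 50.5, 84.4 and 61.8 CPM in KO libraries (-2.57, SE 0.62), and was at -1.81 without WT-2404. Col3a1 was at -2.13 and Col5a1 at -1.92, and without WT-2404 they were at -1.26 and -1.37. Col7a1, the anchoring fibril collagen, was on the other side at 1.04, with overlapping ranges.

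Among 18 metalloproteinase genes and their inhibitors 17 were lower, 10 at an unadjusted p under 0.05 (55.6%, against 13.9% of all genes). Mmp3 and Timp1 were stable (2, or 11.1%, against 3.78%). Timp1 stood at 53.8, 28.6 and 9.44 CPM in WT and 7.61, 0.659, 3.60 and 1.52 CPM in KO libraries (-3.11, SE 0.67, edgeR adjusted p = 0.116). Without WT-2404 Timp1 was at -2.39. The list's median of -1.18 was -0.79 without WT-2404, with 3 genes at an unadjusted p under 0.05. Of 28 fibroblast and stellate cell genes 25 were lower, 15 at an unadjusted p under 0.05 (53.6%, against 13.9% of all genes) and 10 stable (35.7%, against 3.78%). Their median was -0.98, -0.70 without WT-2404 and -0.31 with the enzyme covariate. Their summed level was 1464 to 3788 CPM in WT and 871 to 1515 CPM in KO libraries, so it overlapped between the groups. The proteoglycan gene Lum was at -1.70, the collagen cross-linker Lox at -2.48 and the matrix glycoprotein gene Sparc at -1.68. Without WT-2404 they were at -1.18, -1.55 and -1.05. Gsn, an actin-severing protein, was stable and higher (0.85, SE 0.26). What part fibroblast markers have in the collagen values was not tested.

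Of 30 inflammatory mediators tested 28 were lower, 18 had an unadjusted p under 0.05 (60%, against 13.9% of all genes) and 7 were stable (23.3%, against 3.78%). The rest of the 42 genes listed did not pass the count filter and were not compared. Il6, Tnf, Cxcl2 and Nos2, named for this alone, were among them. The median of -1.25 was -0.88 without WT-2404 (8 genes at an unadjusted p under 0.05) and -0.61 with the enzyme covariate (6 genes). Il33, an alarmin released by damaged epithelium and stroma, stood at 20.7, 20.7 and 14.3 CPM in WT and 11.1, 4.88, 7.42 and 5.66 CPM in KO libraries (-1.34, SE 0.26, edgeR adjusted p = 0.116). Its values outside WT-2404 gave -1.24, so this gene did not lean on that library. Il1rn, the interleukin-1 receptor antagonist, stood at 13.8, 11.2 and 6.86 CPM in WT and 4.70, 0.659, 3.46 and 1.31 CPM in KO libraries (-1.99, SE 0.49). The monocyte chemokine Ccl7 was at -2.59 with under 3 CPM in each library. Nfkbia, a feedback inhibitor of NF-kB, was on the other side at 0.42 (SE 0.23), as was the eosinophil chemokine Ccl11 at 0.54 (SE 0.25), both with overlapping ranges.

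Immune cell markers were lower as well, but most had no p under the threshold without WT-2404. Of 32 myeloid markers 30 were lower and 27 had an unadjusted p under 0.05 (84.4%, against 13.9% of all genes). Only 2 were stable (6.25%, against 3.78%), and without WT-2404 only 5 had such a p. Their median went from -1.72 to -0.88 without that library and to -0.58 with the enzyme covariate. Summed myeloid levels were 3660, 1449 and 968 CPM in WT and 927, 347, 1061 and 353 CPM in KO libraries, and overlapped. Itgam, an integrin of macrophages and neutrophils, was at -1.85 and -0.98 without WT-2404, and Arg1, an enzyme of tissue-repair macrophages, at -2.55 and -1.51. Cd14, a receptor for bacterial lipid, was stable (-1.5, SE 0.45). B cell and follicle genes kept their median without WT-2404 (-1.39 with it, -1.51 without), with 17 of 17 lower and 2 stable (11.8%, against 3.78% of all genes). But KO-2124 reached 82.6 CPM in sum, within the WT range of 79.4 to 127, and the median was -2.83 without KO-2124. Of 18 T and natural killer cell genes 16 were lower, but 2 (11.1%) had an unadjusted p under 0.05, below the 13.9% of all genes that were lower at that p, and 1 was stable (5.56%, against 3.78% of all genes), Thy1 (-1.58), which fibroblasts also make. These counts are near the background. Antigen presentation genes had a median of -0.77, and -0.37 without WT-2404. Of 18 tested, 11 were lower at an unadjusted p under 0.05 (61.1%, against 13.9% of all genes), and 2 without WT-2404. The 1 stable gene, H2-DMa, made up 5.56% of the list, near the 3.78% of all genes. Interferon-stimulated genes were at -0.46 and -0.25, with 8 lower at that p (30.8%, against 13.9%) and 2 stable (7.69%, against 3.78%).

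**Figure D3:**
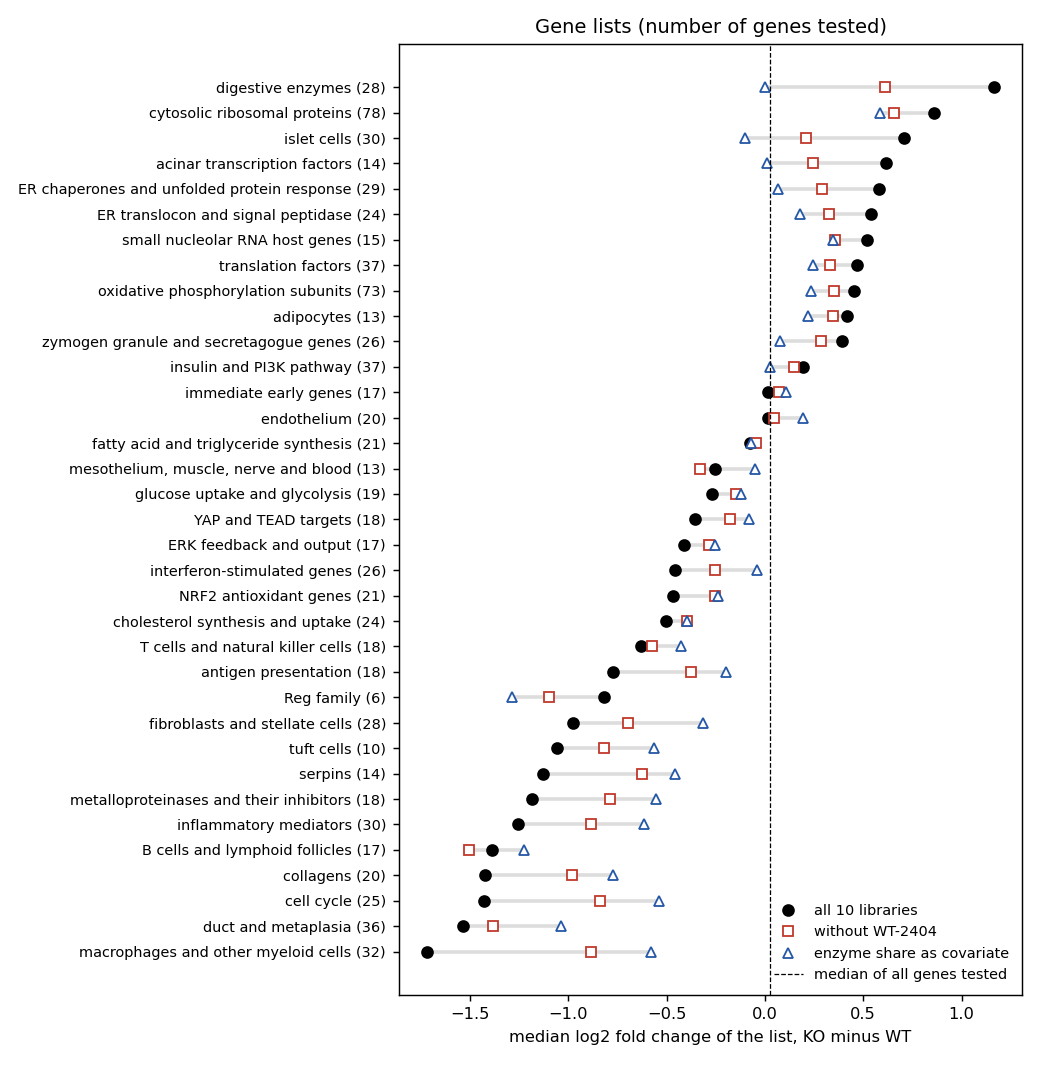
Median log2 fold change, KO minus WT, of each gene list (horizontal axis), with the number of genes tested beside its name, for the fit of all 10 libraries (black circles), without WT-2404 (red squares) and with the enzyme share as a covariate (blue triangles). Ribosomal proteins stay between 0.58 and 0.86 and duct genes between -1.53 and -1.04, while digestive enzymes run from 1.17 to 0.0018 and myeloid genes from -1.72 to -0.58.

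Signalling and metabolic lists differed widely among themselves. All 25 cell cycle genes were lower and 20 had an unadjusted p under 0.05 (80%, against 13.9% of all genes). Only 1 was stable (Mcm4, -1.26), or 4%, near the 3.78% of all genes. Such a p was found for 3 without WT-2404 and 0 with the enzyme covariate, and the median ran from -1.43 to -0.84 and -0.54. Of 17 ERK feedback and output genes 12 were lower, with a median of -0.41. An unadjusted p under 0.05 was found for 6 lower genes (35.3%, against 13.9% of all genes) and 1 higher gene (5.88%, against 9.61%), and without WT-2404 for 2 lower genes. Of the list 1 lower gene (5.88%, against 3.78%) and 1 higher gene (5.88%, against 2.54%) were stable. Phlda1 was stable and lower (-1.5, SE 0.43). Myc, the growth-promoting transcription factor, was the stable higher gene of this list, at 12.3, 20.4 and 23.1 CPM in WT and 28.6, 24.1, 33.9 and 60.3 CPM in KO libraries (0.99, SE 0.33). Of 18 targets of YAP and TEAD, regulators of organ size and injury response, 16 were lower. An unadjusted p under 0.05 was found for 6 (33.3%, against 13.9% of all genes), and 2 were stable (11.1%, against 3.78%). The list's median of -0.36 was -0.18 without WT-2404, with 3 lower genes at such a p, and -0.079 with the enzyme covariate. Ankrd1, a standard readout of YAP, stood at 2.39, 2.46 and 1.96 CPM in WT and 0.371, 0.395, 0.692 and 0.404 CPM in KO libraries (-2.23, SE 0.42, edgeR adjusted p = 0.116), and F3, tissue factor, was at -1.36. Both were stable, and Ankrd1 is counted at low levels.

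Cholesterol synthesis and uptake genes had a median of -0.50, the same sign in 19 of 24, and -0.40 both without WT-2404 and with the enzyme covariate. An unadjusted p under 0.05 was found for 10 lower genes (41.7%, against 13.9% of all genes) and 1 higher gene (4.17%, against 9.61%). Only 2 lower genes were stable (8.33%, against 3.78%), and 2 passed DESeq2's threshold. Hmgcs1, the cytosolic enzyme that feeds the pathway, stood at 19.7, 17.6 and 14.7 CPM in WT and 12.1, 10.3, 11.3 and 10.01 CPM in KO libraries (-0.66, SE 0.16, edgeR adjusted p = 0.116). Summed over the list the level was 211 to 228 CPM in WT and 172 to 189 CPM in KO libraries, without overlap.

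Fatty acid and triglyceride synthesis showed no common direction, with 9 of 21 higher and a median of -0.074. Gpam, which starts triglyceride synthesis, stood at 6.25, 6.40 and 17.4 CPM in WT and 24.8, 27.8, 24.9 and 31.5 CPM in KO libraries (1.46, SE 0.38), while Scd2 (-0.67) and Me1 (-1.63) were stable and lower. Glucose uptake and glycolysis genes had a median of -0.27, and -0.15 without WT-2404, with 15 of 19 lower. An unadjusted p under 0.05 was found for 4 lower genes (21.1%, against 13.9% of all genes), and for 1 without WT-2404. Ldha, lactate dehydrogenase, was the 1 stable gene (5.26%, against 3.78%), at -0.99 (SE 0.25) and -0.62 without WT-2404. Among 21 NRF2 antioxidant genes 15 were lower, with a median of -0.47, and -0.25 without WT-2404. Of these genes 2 were stable (9.52%, against 3.78% of all genes), Gclc (-0.57) and Me1. Of 14 serpins, protease inhibitors, 11 were lower and 5 stable (35.7%, against 3.78% of all genes), among them Serpine2 (-1.58) and Serpina3n (-2.12). The median of -1.13 was -0.63 without WT-2404.

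**Figure D4:**
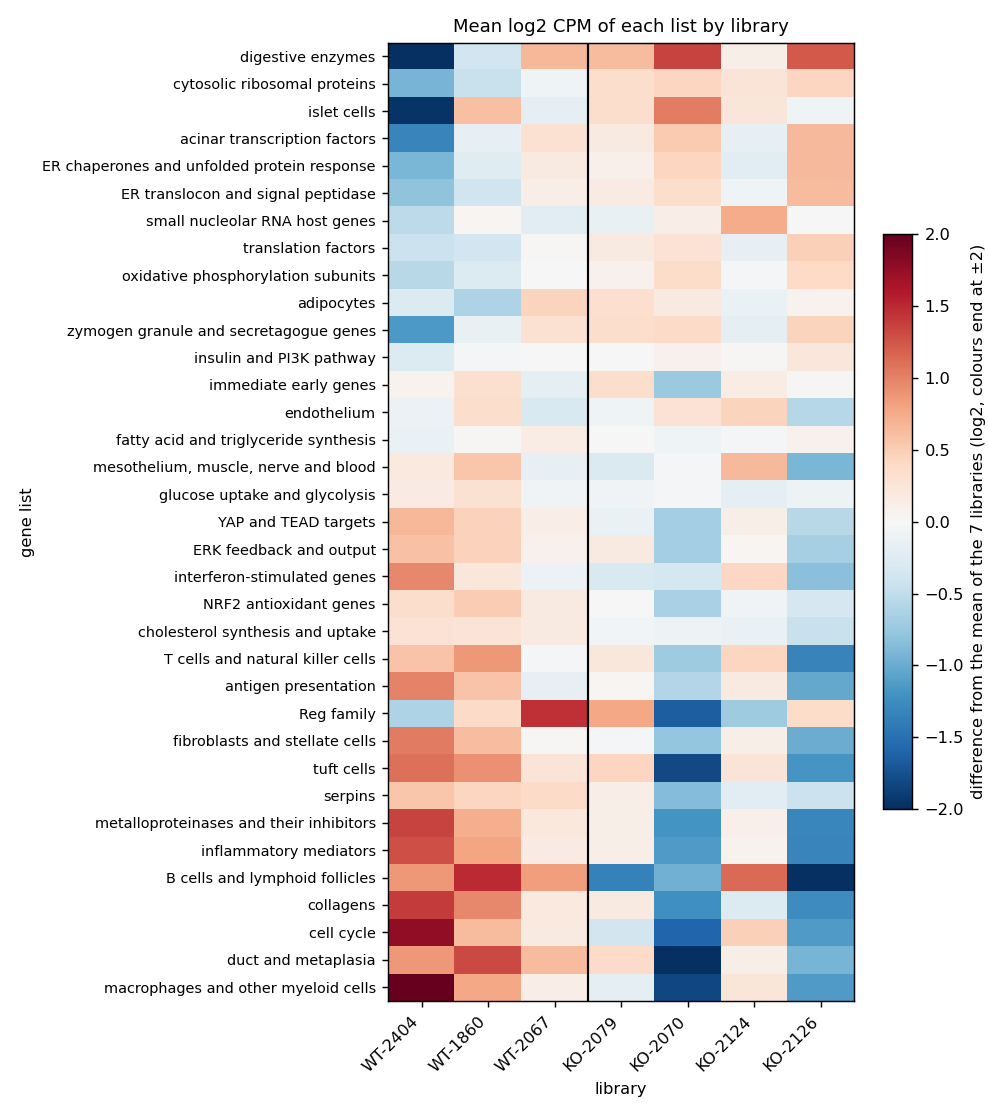
Mean log2 CPM of each gene list in each of the 7 libraries (columns), as the difference from the mean of the 7 libraries, with colours ending at 2 in either direction and a black line between WT and KO libraries. WT-2404 is the darkest column for enzymes, islet and myeloid genes, and the row of ribosomal proteins is below the mean in all 3 WT libraries and above it in all 4 KO libraries.

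Markers of other tissues varied between the pieces. Islet genes, markers of endocrine cells, summed to 588, 6171 and 3361 CPM in WT and 5111, 9187, 4834 and 3962 CPM in KO libraries. Of 30 tested 0 were stable, and the median of 0.71 was 0.21 without WT-2404 and -0.10 with the enzyme covariate. Endothelial genes had a median of 0.014 (20 tested, 0 stable), with Kdr, the VEGF receptor, at 0.76. Adipocyte genes summed to 142 to 163 CPM in WT and 186 to 253 CPM in KO libraries, with 0 of 13 stable. Upk3b, a mesothelial marker, was stable, at 6.47, 4.81 and 5.45 CPM in WT and 7.73, 10.4, 23.7 and 22.0 CPM in KO libraries (1.51, SE 0.44). The keratin of squamous epithelium Krt5 and the haemoglobin genes Hba-a1, Hba-a2, Hbb-bs and Hbb-bt were listed at 0 in all 7 libraries. The haemoglobin genes have near-identical copies, and how shared reads were counted is not given in the sources used here, so these zeros do not show that blood was absent. Alas2, the heme synthesis enzyme of red cell precursors, was counted at 8.21 to 25.9 CPM in WT and 2.93 to 29.0 CPM in KO libraries, with overlapping ranges. What part these tissues have in the other differences was not tested.

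Gene length moved with direction. The stable higher genes had a median exon length of 1977 bases (GENCODE M21), and 2223 without ribosomal proteins, against 3330 for the stable lower genes and 3338 for all genes tested. With all genes split by length into 5 bins of equal size, the median log2 fold change ran from 0.16 in the bin of the shortest to -0.039 in that of the longest, and from 0.13 to -0.010 without WT-2404. What part length has in the values of short genes, such as those of ribosomal and respiratory proteins, was not tested. Insr lies at chr8:3150922-3279649 (RefSeq, GRCm38.p6). Of 32 other genes tested within 5 Mb of it, 5 were higher and 6 lower at an unadjusted p under 0.05, and 4 were stable. Of all genes tested 9.61% were higher and 13.9% lower at that p and 6.32% were stable. These 4, chosen for that after their values were seen, were Timm44 (0.65) and Cers4 (0.75), higher, and Ctxn1 (-2.03) and Cd209a (-2.63), lower.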

How the data were processed

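RNA from a pulverised piece of the pancreas tail was sequenced, 1 library per mouse per the labels. The p-values thus measure the spread between mice together with that between pieces. In edgeR this spread was estimated over all 10 libraries, the 3 Insr Het ones included. The authors deposited raw counts per gene symbol, whole numbers, in 1 table. The submitters' processing notes name DRAGEN, STAR, Cufflinks and mm10; which made the counts, the annotation and the strand setting are not given in the sources used here, so overlapping and near-identical genes are uncertain. Column names carry the genotype and mouse number (0 columns not used). Rows of reads outside genes (2.59% to 8.71% of counts in the 7 libraries) and ambiguous reads (0.101% to 0.584%) stayed out. Within groups, every pair of libraries differed by more than sampling noise (chi-square per degree of freedom 21.8 to 855).

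Of 24421 genes, 6269 had no count and 13688 passed filterByExpr (minimum count 10). Genes were fitted with edgeR 4.0.16 in R 4.3.3 (TMM, quasi-likelihood, robust, two-sided, no covariate since no batch is given) over all 10 libraries, with adjustment by Benjamini and Hochberg. DESeq2 1.42.0 and limma 3.58.1 were also used, the latter for edgeR's functions. Fold changes are KO minus WT on the log2 scale. A gene at 0 could still have up to 3 counts, or 0.0501 to 0.395 CPM by library, a floor for counting error only. Alternatives were RLE factors, library size alone, factors without enzyme genes, a filter of at least 1 count, DESeq2, the 7 libraries alone, the enzyme share as covariate and each library left out. Scripts were tested on simulated data.

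The 35 gene lists and the members were chosen with earlier results of these data known. Named genes are Insr and Igf1r, up to 4 members of a list in its main direction and 2 in the other by p, up to 15 stable genes per direction by p and 5 by fold with a group mean of at least 5 CPM, and the 10 genes with the most counts; exceptions are stated. The results of some genes are not reported here. Promoters, matched by symbol for 10885 genes, are from RefSeq.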

Additional observations from a re-analysis of the deposited data

Results flagged for a closer look

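In the 4 KO libraries 167 measures were screened with Dixon's gap test for 1 library far from the other 3. It marked 9, where chance gives about 1 in 20, or 8.35. KO-2079 had 22.7 CPM of Insr against 33.3 to 35.5 in the others, and 25 CPM of Igf1r against 28.2 to 28.5. Timm44, near Insr on chromosome 8, was at 20.7 CPM in that library against 18.1 to 18.4. In KO-2124, reads outside genes made up 8.71% of counts against 2.59% to 3.48%, the mean log2 CPM of zymogen granule and secretagogue genes was 5.56 against 6.11 to 6.19, Rpl35a was at 209 CPM against 151 to 157, and Ankrd1 at 0.692 CPM against 0.371 to 0.404. In KO-2070, Nfkbia was at 16.1 CPM against 25.4 to 26.9, and Snhg18 at 22.7 CPM against 17.2 to 17.7. Even so, Igf1r, Rpl35a, Snhg18, Timm44 and Ankrd1 kept every KO library on one side of every WT library.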

How the results depend on the processing

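In edgeR the count past the adjusted threshold was 0 to 1932 over the 7 fits that leave out a library, with 1932 (881 higher) without WT-2067 and 0 without each of the others; DESeq2 gave 1009 (294 higher). The count at an unadjusted p under 0.05 ran from 1297 without WT-2404 (569 higher) to 4600 without WT-2067, and was 768 with the enzyme share as covariate (326 higher). Library size alone gave 2841 genes past the threshold (0 higher), 6295 at an unadjusted p under 0.05 (4 higher) and 306 stable genes (0 higher), 197 of them shared with the 865, beside the shift of -1.17 in all genes. RLE factors, factors without enzyme genes and the 7 libraries alone gave 872, 852 and 672 stable genes, with 825, 843 and 642 shared. With a library left out Insr ran from -0.12 (WT-2404) through -0.0021 (KO-2124) to 0.38 (WT-2067), and Rps27 from -0.63 (KO-2070) to 0.12 (WT-2067). With the enzyme covariate Insr was at -0.20, Ctrb1 at -0.19 and Alas2 at 0.0056; the cause was not tested. No paired analysis was possible because the replicate numbers are mouse numbers and the groups share none. With 3 WT mice, 1 of which stands apart, and 4 KO mice, the spread limits these results more than depth does, except for genes near 1 CPM such as Ankrd1, Ccl7 and Rps27.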

Other observations

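Gene groups that the lists did not hold were gathered after the values had been seen, so their counts are a description alone and support nothing. Genes of fatty acid oxidation and ketone synthesis had a median log2 fold change of 0.74, with 0.63 without WT-2404, 0.54 with the enzyme covariate and -0.39 by library size alone. Of 36 tested, 33 were higher in KO libraries, 22 at an unadjusted p under 0.05 in edgeR (61.1%, against 9.61% of all genes) and 9 stable (25%, against 2.54%). These included Acadm, a dehydrogenase of medium-chain fatty acids, at 14.7, 14.7 and 21.2 CPM in WT and 32.8, 33.1, 23.7 and 31.0 CPM in KO libraries, and Ppara, the nuclear receptor that drives such genes in liver, at 1.25, 2.63 and 5.70 CPM in WT and 6.99, 9.49, 6.18 and 9.50 CPM in KO libraries. Mitochondrial ribosomal proteins had a median of 0.40, with 67 of 77 higher and 7 stable (9.09%, against 2.54% of all genes).

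Of 47 actin cytoskeleton genes 41 were lower, 38 at an unadjusted p under 0.05 (80.9%, against 13.9% of all genes) and 28 stable (59.6%, against 3.78%). Their median was -0.81, with -0.61 without WT-2404 and -0.50 with the enzyme covariate. Actb, the cytoplasmic actin often used to normalise other genes, stood at 743, 643 and 349 CPM in WT and 290, 174, 257 and 163 CPM in KO libraries, and Cfl1, which severs actin filaments, at 217, 140 and 94.5 CPM against 80.8, 67.7, 64.2 and 58.6 CPM. Gapdh, another common reference gene, was at -0.79 with overlapping ranges. Of 15 tubulins 11 were lower and 7 stable (46.7%, against 3.78% of all genes), among them Tuba1b at -1.34. Summed tubulin levels were 176 to 331 CPM in WT and 137 to 152 CPM in KO libraries.

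Ctrc, the chymotrypsin C gene and the enzyme with an unadjusted p under 0.05, owed its fold to 2 libraries. It stood at 1.47, 117 and 212 CPM in WT and 134, 11510, 4704 and 184 CPM in KO libraries, so KO-2070 and KO-2124 lay far above the rest while KO-2079 and KO-2126 lay within the WT range.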
